A study of Arabidopsis thaliana with 6 samples.

Results

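Class I homeodomain-leucine zipper (HD-ZIP I) genes encode plant transcription factors that join a DNA-binding homeodomain to a leucine zipper through which the proteins dimerise. They were taken here as 9 genes named by locus code, HB-1, HB3, HB-5, HB-6, HB-7, HB-12, HB13, HB16 and HB23, out of 17 HD-ZIP I genes listed for Arabidopsis thaliana and 27444 protein-coding nuclear genes in all. A peak was given to a gene where its summit, the position of highest tag density, lay inside the gene or within 3000 bp of either end. The 9 genes were proposed with these peaks already known. Presence of a peak, its position and its strength are therefore given as a description, with no test.

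HD-ZIP I proteins are known for adjusting growth to water supply, abscisic acid and light. PIF1, a helix-loop-helix regulator that accumulates in darkness, binds E-box type DNA elements and is degraded when light activates phytochrome. HB-1 has been placed downstream of PIF1 in hypocotyl growth under short days. HB16 is known as a repressor of leaf cell expansion that takes part in blue-light responses. HB-5 and HB-6 modulate abscisic acid responses, HB-7 and HB-12 are induced by drought and abscisic acid, and HB13 shapes cotyledons and leaves.

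The tagged seedlings overexpressed Myc-epitope-tagged PIF1 (P1M), and wild-type (WT) seedlings went through the same anti-Myc immunoprecipitation as the background. All were whole seedlings, 3 days old, kept in darkness at 21 °C after 3 h of white light given to the seeds, and neither the transgene promoter nor the number of transgenic lines is given in the sources used here. There were 3 PIF1 libraries and 3 WT libraries, each pooling 4 immunoprecipitation assays from 2 biological replicates. Each of the 3 peak lists set 1 PIF1 library against the WT library of its number. WT enters the fold enrichment, score and false discovery rate of a peak as the background and has no values of its own. The tag count of a peak is of PIF1 tags alone.

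The lists differed in depth and length. PIF1 library 1 had the fewest tags before duplicate filtering, 16281353, but the most after it, 14209334, and gave the shortest list, 4578 peaks. Libraries 2 and 3 had 19185319 and 17050217 before filtering and 5825479 and 5721184 after it, and gave 12776 and 7678 peaks. WT libraries 1, 2 and 3 had 17323572, 6134032 and 7435352 after filtering. Median fold enrichment was 2.71, 5.29 and 3.87 in lists 1, 2 and 3. Fold enrichment, tag count, score and false discovery rate (FDR) are the authors' values for each peak, and a percentile is the rank of a peak by fold enrichment within its own list. The fold enrichment is a ratio of PIF1 tags to the local WT background, and its median differed between lists. Genes are therefore set side by side between lists by percentile. A percentile ranks a peak only among the called peaks of its own list. Since the lists differ in depth and length, equal percentiles need not mean equal strength.

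All 9 genes had a peak in list 2, 8 had one in list 3 and 7 had one in list 1. HB16 and HB-5 carried the strongest sites, at percentiles of 95.6 or higher in every list. HB23 had a single peak in list 2. Over all protein-coding nuclear genes, 26.3% had a peak in list 1, 59.5% in list 2 and 41.6% in list 3 by the same rule, so list 2 held a peak at most genes. Peaks of at least 2 lists lay at 8 of the 9 genes, against 40.5% of all genes. Peaks of all 3 lists lay at 7 of the 9 (HB-1, HB-5, HB-6, HB-7, HB-12, HB13 and HB16), against 13.6% of all genes. Since the genes were chosen from these lists, these shares support nothing beyond the description.

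Counting only peaks that overlapped each other, 8 of the 9 genes had a site of at least 2 lists, where 29.7% of all genes did, and 6 had a site of all 3 lists, where 9.38% did. HB-6 was the gene that dropped out of the count for all 3 lists, because its peak of list 2 lay elsewhere than those of lists 1 and 3. The 9 genes held 43 peaks, 7 in list 1, 22 in list 2 and 14 in list 3, with a median of 5 peaks per gene against 1 over all genes. Merging overlapping peaks left 25 sites, of which 6 were held by all 3 lists, 5 by 2 lists and 14 by a single list. Of the single-list sites, 11 were in list 2 and 3 in list 3, and their fold enrichments ran from 2.78 to 9.83.

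**Figure D1:**
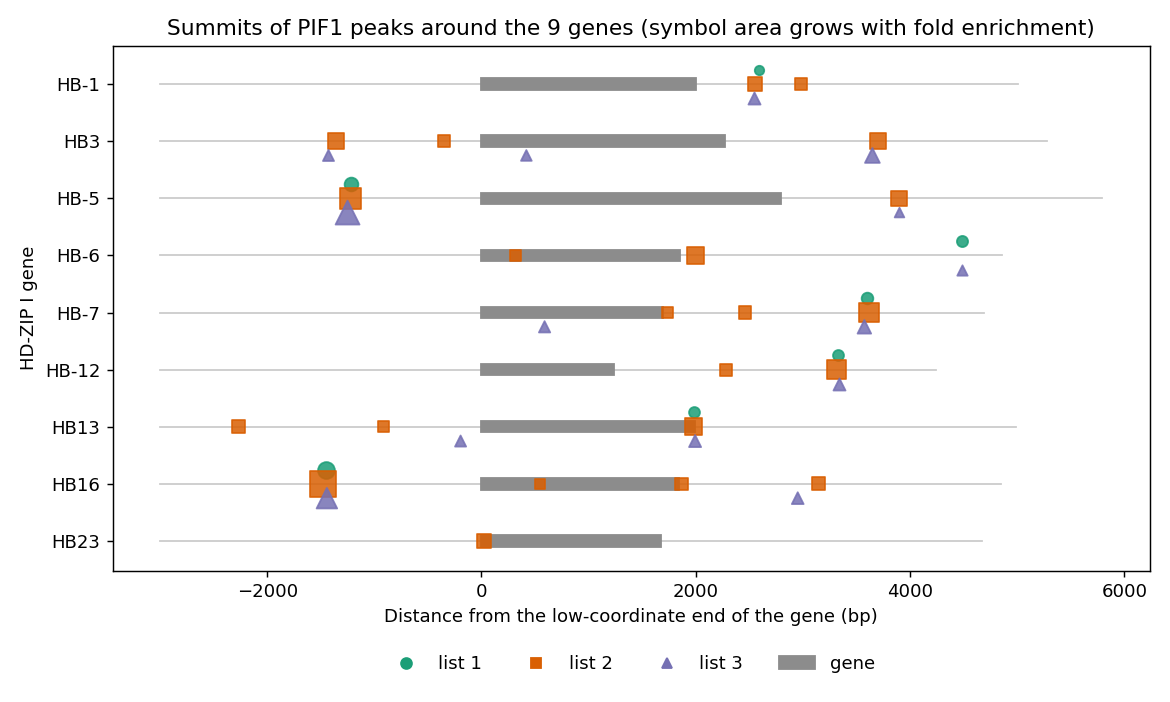
Summits of PIF1 peaks around the 9 HD-ZIP I genes, with distance in bp from the low-coordinate end of each gene on the x axis, genes as grey bars drawn to scale and symbol area growing with fold enrichment. The sites of all 3 lists at HB-5 and HB16 lie on the low-coordinate side, those at HB-1, HB-7 and HB-12 lie beyond the high-coordinate end, and that at HB13 lies on the high-coordinate end itself.

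HB16 (AT4G40060) had the strongest site of the 9 genes by mean percentile. Its peaks stood at chromosome 4, 18569299 to 18570485 in list 1, 18569280 to 18570422 in list 2 and 18569282 to 18570522 in list 3 (TAIR10). They held 410, 316 and 237 tags of PIF1 libraries 1, 2 and 3. All 3 lists thus placed one strong peak of nearly the same extent there. Fold enrichments were 9.84, 24.85 and 15.2, at percentiles 99.5, 99.0 and 98.9, a mean of 99.1 ± 0.30 (SD, n = 3). The summits lay 1452, 1475 and 1443 bp beyond the low-coordinate end of the gene, within 32 bp of each other, and no other protein-coding gene lay within 5000 bp of them.

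Weaker peaks surrounded the rest of HB16. List 2 held a peak inside the gene (2.78-fold) and another 25 bp beyond the high-coordinate end (5.17-fold), neither found in lists 1 or 3. A site of lists 2 and 3 lay 1299 and 1107 bp beyond that end, with fold enrichments of 5.66 and 4.31, and AT4G40063 was nearer to it (687 and 879 bp). The inside peak had a score of 54.88, close to the lowest score of 50 that the list holds.

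HB-5 (AT5G65310) had peaks at chromosome 5, 26100257 to 26101110, 26099736 to 26101055 and 26100222 to 26101131 in lists 1, 2 and 3. Fold enrichments were 6.24, 15.02 and 20.93, with 319, 378 and 317 tags and percentiles of 96.4, 95.6 and 99.6 (mean 97.2 ± 2.09, SD, n = 3). By percentile, list 3 ranked this site highest, as it also did that of HB-1. The summits lay 1214, 1222 and 1250 bp beyond the low-coordinate end, with AT5G65300 the next gene more than 4000 bp away. On the other side of HB-5, a site of lists 2 and 3 lay 1099 and 1106 bp beyond the high-coordinate end, with 8.25-fold (percentile 81.5) and 2.56-fold (percentile 4.36). The 2 lists placed its summits 7 bp apart while ranking it very differently.

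HB-6 (AT2G22430), whose protein interacts with the ABI1 phosphatase, is the close paralog of HB16 and had no site shared by all 3 lists. In list 2 a peak of 9.83-fold (218 tags, percentile 87.9) stood 140 bp beyond its high-coordinate end, at chromosome 2, 9527167 to 9528723, and one of 3.23-fold lay inside the gene. Lists 1 and 3 had neither. They shared instead a site whose summits, 2628 and 2629 bp from HB-6, fell inside RIBA2, a riboflavin synthesis gene, with 3.73-fold (percentile 80.4) and 3.11-fold (percentile 20.8). The mean percentile of the strongest peaks at HB-6, taken over these different sites, was 63.0 ± 36.7 (SD, n = 3). It was the widest spread of the 7 genes with peaks in all 3 lists.

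HB-1 (AT3G01470) had the weakest site held by all 3 lists. Its peaks at chromosome 3, 184145 to 185595, 184146 to 185215 and 184599 to 185260 had fold enrichments of 2.39, 6.24 and 4.6 and percentiles of 30.8, 65.8 and 71.2 in lists 1, 2 and 3 (mean 56.0 ± 21.9, SD, n = 3). The summits agreed, 584, 543 and 539 bp beyond the high-coordinate end. The peak of list 1 held 299 tags over a wide stretch but scored 52.66, the lowest score of all 43 peaks, against a lowest score of 50.01 anywhere in list 1. List 2 held a further peak of 3.98-fold beside it, 975 bp from the gene.

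**Figure D2:**
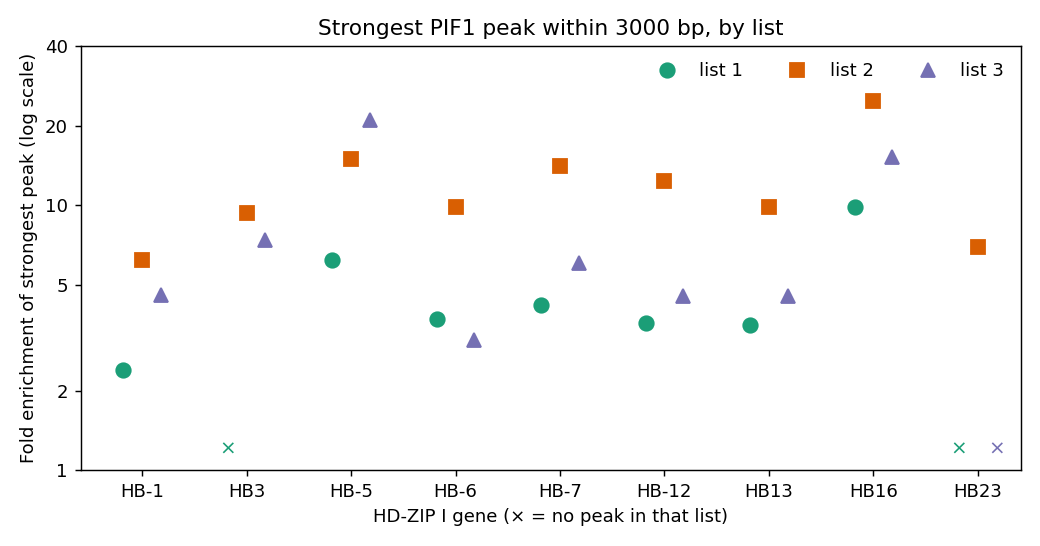
Fold enrichment on a log scale (y axis) of the strongest PIF1 peak within 3000 bp of each of the 9 HD-ZIP I genes (x axis) in lists 1, 2 and 3, with crosses where a list had no peak. HB16 and HB-5 stand highest within each list, HB3 lacks a peak in list 1 and HB23 lacks one in lists 1 and 3.

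The drought-responsive paralogs HB-7 and HB-12 had sites at a like distance on the same side by coordinate. At HB-7 (AT2G46680) the site of all 3 lists covered chromosome 2, 19168335 to 19169330, with fold enrichments of 4.19, 14.06 and 6.05, tags of 105, 189 and 91, and a mean percentile of 88.9 ± 5.03 (SD, n = 3). Its summits lay 1908, 1921 and 1881 bp beyond the high-coordinate end. At HB-12 (AT3G61890) the site covered chromosome 3, 22916905 to 22917768, with fold enrichments of 3.6, 12.36 and 4.54, tags of 140, 143 and 61, and a mean percentile of 80.3 ± 11.8 (SD, n = 3). Its summits lay 2089, 2072 and 2098 bp beyond the high-coordinate end. The percentiles of these sites overlapped in range between the paralogs (86.0 to 94.8 at HB-7 and 69.6 to 93.0 at HB-12). Within each list, though, HB-7 ranked above HB-12 by fold enrichment (86.0 against 78.4, 94.8 against 93.0 and 86.1 against 69.6). By tag count the order was the reverse in list 1 (105 tags at HB-7 against 140 at HB-12). HB-7 also had 3 single-list peaks, of 3.87-fold inside the gene in list 3 and of 3.74-fold and 4.89-fold at 45 and 765 bp in list 2. HB-12 had 1, of 4.5-fold at 1046 bp in list 2.

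HB13 (AT1G69780), HB3 (AT5G15150) and HB23 (AT1G26960) are close relatives that differed in support. HB13 had a site of all 3 lists on its high-coordinate end, at chromosome 1, 26260123 to 26261074. Its summits fell inside the gene in lists 1 and 2 and 1 bp outside it in list 3, within 13 bp of each other. Fold enrichments were 3.55, 9.9 and 4.56, with 125, 160 and 82 tags and a mean percentile of 78.8 ± 8.76 (SD, n = 3). On the other side of HB13, lists 2 and 3 held 3 single-list peaks at 2269, 915 and 195 bp, of 5.59-fold, 3.71-fold and 3.7-fold.

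HB3 had no peak in list 1, where the nearest summit was 16947 bp away, but 3 peaks each in lists 2 and 3. The stronger of its shared sites stood at chromosome 5, 4916958 to 4918495, with summits 1425 and 1372 bp beyond the high-coordinate end. It had 9.37-fold and 7.4-fold, 503 and 82 tags, and percentiles of 86.4 and 91.8 (mean 89.1 ± 3.85, SD, n = 2). Its 503 tags in library 2 were the most of any of the 43 peaks. The other shared site, 1360 and 1428 bp beyond the low-coordinate end, had 9.17-fold and 3.7-fold, and in list 3 the gene AT5G15140 was nearer to its summit (1351 bp). The remaining peaks, of 4.33-fold at 351 bp in list 2 and of 3.4-fold inside the gene in list 3, did not overlap another list.

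HB23 had a peak of 6.98-fold (70 tags, percentile 73.3) in list 2 alone, with its summit inside the gene, at chromosome 1, 9355673 to 9356159. The next summits at HB23 fell outside the 3000 bp window, at 4512, 3792 and 3745 bp in lists 1, 2 and 3, with 3.97-fold, 8.78-fold and 6.18-fold. All 3 of them lay inside KDR, the gene of a helix-loop-helix protein that acts in light signalling. At the edge of the window, the summits at HB-6, at 2628 and 2629 bp, were the farthest inside it. The nearest outside it were in list 2, at 3059 bp from HB-1 (3.6-fold), 3205 bp from HB13 (6.75-fold) and 3341 bp from HB-5 (6.62-fold). At HB-6 the next summits outside lay at 3477 bp in list 1 (2.56-fold) and 3765 bp in list 3 (5.88-fold), and at HB13 at 3933 bp in list 3 (5.38-fold). In list 2 the next summit at HB-6 lay at 4954 bp, on the low-coordinate side, and its 25.68-fold (percentile 99.1) was higher than that of any of the 22 peaks of list 2 inside the windows.

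By mean percentile of the strongest peak, the order of the 9 genes was HB16, HB-5, HB3, HB-7, HB-12, HB13, HB23, HB-6 and HB-1. A list without a peak was left out of the mean and did not lower it. This bears on the places of HB3, which rests on lists 2 and 3, and of HB23. HB16 and HB-5 overlapped in range, since list 3 ranked HB-5 higher (99.6 against 98.9). HB3 and HB-7 differed by less than either spread, and HB-12 and HB13 also differed by less than either spread. HB23 rests on list 2 alone, and its place depends on the measure, with a percentile of 73.3 by fold, 45.4 by score and 41.6 by tag count. The places of HB-1, HB-6, HB-7, HB-12 and HB13 also depend on the measure. By tag count HB-1 had a mean percentile of 83.3, above HB13 (60.0), HB-7 (59.2) and HB-12 (55.9). HB-6 and HB-1 overlapped widely, but the values of HB-6 come from different sites, those of lists 1 and 3 inside RIBA2. The strongest peak stood below the median of its list at HB-1 in list 1 (percentile 30.8) and at HB-6 in list 3 (percentile 20.8). The latter had its summit inside RIBA2. The median percentile of the strongest peaks was 80.4, 88.0 and 78.6 at these genes in lists 1, 2 and 3, and 53.7, 60.8 and 56.4 over all genes with a peak. Most genes with a peak thus also had their strongest peak above the median of the list, and their exact share was not counted. A gene with more peaks has more chances of a strong one, and the part this plays was not tested.

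The sites of all 3 lists shared a place outside the gene, except at HB13. At the other 5 genes the summits lay 539 to 2098 bp outside, beyond the low-coordinate end at HB-5 and HB16 and beyond the high-coordinate end at HB-1, HB-7 and HB-12. Strand was not used here, so these sides are not named as upstream or downstream. Of the 25 sites, 6 were placed inside the gene, and 5 of those 6 came from a single list, as did 14 of all 25. The same shares over the regions of all genes were not counted. The summits of the 3 lists agreed within 13 to 45 bp at the 6 sites (median 34), against a median of 48 bp over all 1390 regions of 3 lists (quartiles 26 and 97). Of the 43 peaks, 5 had another protein-coding gene nearer to the summit, namely AT5G15140 at HB3, RIBA2 at HB-6 and AT4G40063 at HB16.

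**Figure D3:**
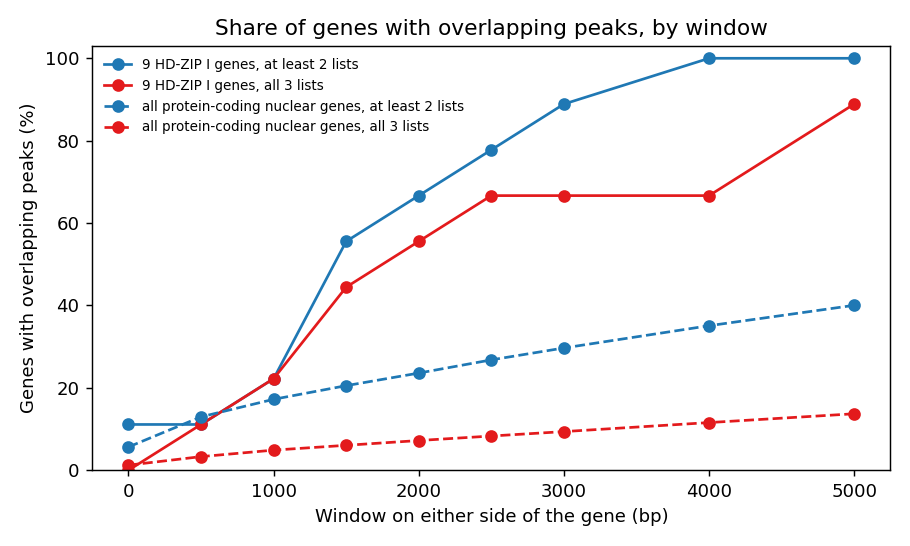
Share of genes (y axis, percent) with overlapping peaks of at least 2 lists or of all 3 lists, by the window allowed on either side of the gene (x axis, bp), for the 9 HD-ZIP I genes and for all protein-coding nuclear genes. With peaks inside the gene alone, 0 of the 9 genes had a site of all 3 lists (1.24% of all genes). With windows of 2500, 3000 and 4000 bp 6 of 9 had one (8.31%, 9.38% and 11.6% of all genes). With 5000 bp 8 of 9 did (13.7% of all genes).

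The count of genes can only rise as the window widens, and it rose both at the 9 genes and over all genes. With summits inside the gene alone, 1 of the 9 genes (HB13) had overlapping peaks of at least 2 lists, where 5.65% of all genes did. With a window of 1000 bp there were 2 of 9, where 17.2% of all genes did, and with 1500 bp 5 of 9, where 20.5% did. With 2000 bp there were 6 of 9 (23.6% of all genes). HB-12 joined at 2500 bp, HB-6 at 3000 bp and HB23 at 4000 bp, and the peaks that brought in HB-6 and HB23 lay inside RIBA2 and KDR.

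The FDR, which MACS estimates by exchanging the roles of PIF1 and WT, stood at 100% for all 7 member peaks of list 1, as for the whole of that list, and for 9 of the 14 of list 3, where it did for 82.5% of all peaks of the list. The lowest values of list 3 were 11.34% at HB16 and 12.12% at HB-5. In list 2, 5 peaks had 5% or less, 1 each at HB3 (0.94%), HB-5 (0.96%), HB16 (1.02%), HB-7 (1.79%) and HB-6 (4.22%). That is 5 of 22 member peaks, against 10.6% of all peaks of list 2.

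The other 8 HD-ZIP I genes were counted by the same rule. HB21, HB40 and HB53 had peaks in all 3 lists (3 of 8, against 13.6% of all genes), HB52 and HB54 in 2, and HB20, HB22 and HB51 in 1. HB21, HB40 and HB53 are known to act in bud dormancy through abscisic acid synthesis. At HB53 the strongest peaks had fold enrichments of 9.42, 26.83 and 15.8, with summits 1965, 1982 and 1966 bp beyond the low-coordinate end, close to the values at HB16. HB40 had 2 sites of all 3 lists. The one with 3.48-fold, 10.7-fold and 5.19-fold lay within 60 bp of GBF1, a G-box binding factor gene, and 1905 to 1960 bp from HB40. The other, 2664 to 2762 bp from the opposite end, had 5.63-fold, 5.52-fold and 3.19-fold. HB21 had 2.84-fold, 15.36-fold and 3.93-fold at 2100 to 2140 bp. At HB52 the genes TAT7, AT5G53990 and AT5G54000 were nearer to some of the summits, and at HB54 AT1G27050 was nearer to both.

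**Figure D4:**
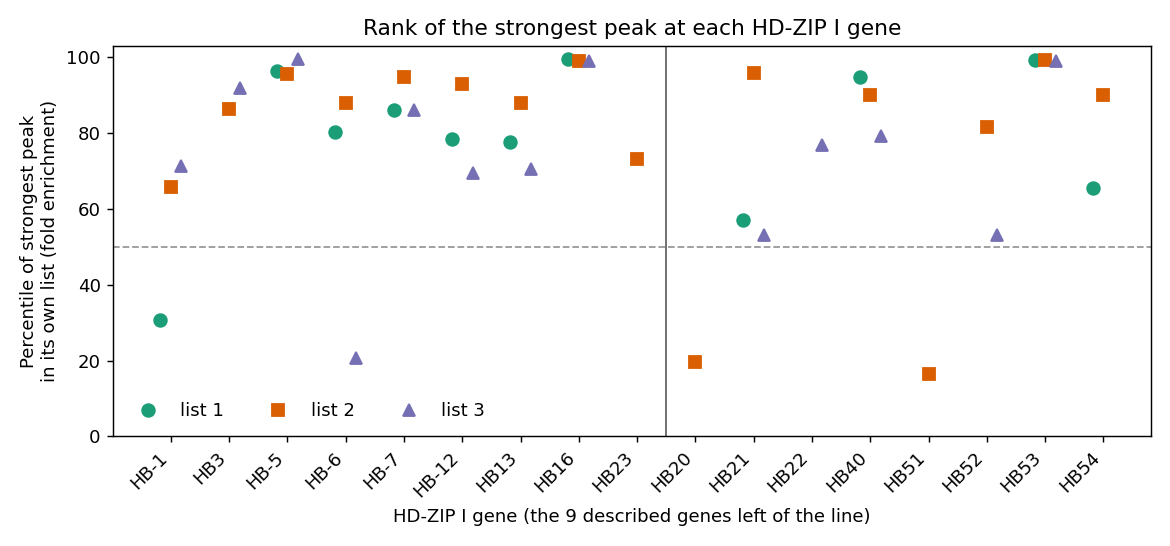
Percentile by fold enrichment within its own list (y axis) of the strongest peak at each of 17 HD-ZIP I genes (x axis) in lists 1, 2 and 3, with the 9 described genes left of the line and the median of each list dashed. HB16, HB-5 and HB53 stand at 95.6 or higher in all 3 lists, while HB20 and HB51 have 1 low-ranked peak each in list 2.

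Strong peaks in every list were rare among all genes. A strongest peak at or above percentile 95 in all 3 lists was found at 259 genes, or 0.944%. It was found at 2 of the 9 (HB16 and HB-5) and 1 of the other 8 (HB53). The percentile of 95 was set after seeing these values, and HB-5 passed it narrowly, at 95.6 in list 2. The contrast with all genes is therefore a description only. Class II HD-ZIP genes had 3 of 10 by the same rule (HAT1, HAT2 and ATHB4), and ATHB4 had a mean percentile of 99.5, above that of HB16. By mean percentile, HB16 ranked 65 and HB-5 ranked 229 among the 3733 genes with peaks in all 3 lists. HB-7 ranked 974, HB-12 1545, HB13 1647, HB-6 2405 and HB-1 2753. Over the 3 lists, the genes outside the 9 with percentiles most like those of HB16 were HB53 (summed absolute difference of 0.519 percentile units) and the neighbouring genes AT3G20898 and AT3G20900 (0.568 each), compared among 3726 genes. AT3G20898 and AT3G20900 had the same values, 8.4-fold, 25.68-fold and 15.13-fold.

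Other classes of the HD-ZIP family and genes of abscisic acid signalling were counted by the same rule, beside the background of 13.6% of all genes with peaks in all 3 lists. Class II, linked to shade responses, had 7 of 10 genes (HAT1, HAT2, ATHB4, HAT9, HAT14, HAT22 and ATHB18). Class III, which patterns leaves and vessels, had 3 of 5 (REV, PHB and CNA). Class IV, which acts in the epidermis, had 1 of 16 (FWA). Of 7 abscisic acid genes that work with HD-ZIP I factors, 4 had peaks in all 3 lists. The phosphatase gene ABI1 had 3.26-fold, 6.5-fold and 4.38-fold in lists 1, 2 and 3, PP2CA 3.38-fold, 11.31-fold and 5.37-fold, and ABI2 2.26-fold, 9.02-fold and 4.74-fold. The receptor gene PYL8 had 5.52-fold, 18.54-fold and 4.7-fold. PYL5, HAB1 and NCED3 had peaks in 2 lists. Counting only peaks of all 3 lists that overlapped each other, class II had 6 of 10 genes (without HAT14), class III 0 of 5, class IV 1 of 16 and the abscisic acid genes 3 of 7 (without ABI2), against 9.38% of all genes.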

How the data were processed

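Chromatin from 3 PIF1 and 3 wild-type seedling libraries was sequenced in 50-cycle single-end runs, per the labels' protocols, and grouped by sample title. CASAVA 1.8.0, Bowtie 0.12.7, MACS 1.4.1 and build TAIR10 are named in the submitters' processing notes. Peak calling was done per pair of like-numbered PIF1 and wild-type libraries, without pooling, with a p cutoff of 1e-05 and the smaller data set scaled towards the larger, per the file headers. The deposited tag count is the unscaled count of PIF1 tags in a peak, the deposited score is 10 times the negative log10 of the caller's p, the deposited fold is a ratio to local wild-type background, and the deposited FDR is in percent. Duplicates made up 13%, 70% and 66% of PIF1 libraries 1, 2 and 3, per the file headers. In wild-type libraries 1, 2 and 3 they made up 24%, 61% and 15%.

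Peaks were placed at start plus summit minus 1 and assigned within 3000 bp with Python 3.11.15 and pandas 2.3.3. Peaks overlapping by at least 1 bp were merged. Gene names, neighbours and distances came from a TAIR10.1 gene table used without strand, whose coordinates are not given because its build name differs. It writes some symbols otherwise (HB-3, HB5, HB6, ATHB13, AtHB23). All 55 listed genes matched by locus code. Members, gene lists and tests were chosen with earlier results of these data known. Named were all members, the other class I genes, genes of other lists with peaks in all 3 lists, nearer genes, and the 3 genes most like the strongest member. The percentile of 95 was set after seeing the values. The assignment was tested on simulated data. Promoter sequences and motifs were not analysed here. Peaks are not replicates, and spread between the 3 lists may be partly technical.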

Additional observations from a re-analysis of the deposited data

How the results depend on the processing

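The counts of HD-ZIP I genes with peaks in list 1, 2 or 3, in at least 2 lists and in all 3 lists (7, 9, 8, 8 and 7 of 9) were recomputed under other settings. With a window of 1000 bp they were 2 in list 1, 4 in list 3, 4 in at least 2 lists and 2 in all 3 lists, where all genes gave 15.0%, 25.3%, 22.0% and 6.17%. With peaks scoring at least 100, list 1 gave 4 genes and all 3 lists gave 3 (9.39% and 5.31% of all genes). With peaks of at least 5-fold, list 1 gave 2 genes, list 3 gave 4, at least 2 lists gave 4 and all 3 lists gave 2 (2.30%, 11.4%, 10.5% and 2.09% of all genes). The filters remove peaks by construction, and list 1 has the lowest folds. The other 32 of 42 recomputed counts stayed within 1.5 times. They were the remaining counts under these 3 settings, and all counts with windows of 2000 and 5000 bp, whole peak intervals, overlapping peaks, summits within 200 bp, each list left out and peaks with no nearer gene, a setting chosen after seeing the data. Leaving out list 1, 2 or 3 gave 8, 7 and 7 genes in at least 2 lists, where all genes gave 32.8%, 15.4% and 19.4%. Ranking by tag count put HB-1 at a mean percentile of 83.3 (56.0 by fold), HB-7 at 59.2 (88.9), HB-12 at 55.9 (80.3), HB13 at 60.0 (78.8) and HB23 at 41.6 (73.3). Ranking by score put HB23 at 45.4, HB-12 at 63.8 and HB13 at 68.0. The order of these 5 genes thus depends on the measure. So does the place of HB-6, which stood above HB-12 by score (64.9) but below it by fold (63.0). HB3 stood at 84.0 by tag count and 89.1 by fold. The cause was not tested. HB16 and HB-5 stayed at 95.9 or higher by each measure. The planned check of promoter motifs was not run, since no promoter sequence was used here. No paired analysis was possible because each list already sets 1 PIF1 library against its WT library and no count per library outside of peaks was used.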
